A study of Mus musculus with 12 samples.

Results

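Aminoacyl-tRNA synthetases are the enzymes that join each amino acid to its transfer RNA, the step that sets the genetic code. One set works in the cytosol and another, also encoded in the nucleus, works in mitochondria, where it serves translation of the respiratory chain subunits made from mitochondrial DNA. Several cytosolic enzymes sit together in a multi-synthetase complex, and a number of synthetase genes are targets of ATF4, the transcription factor of the amino acid response. T cells that grow or divide depend on this supply of charged transfer RNA. The genes were taken by name from a list of the family, and 36 of the 13207 genes in the deposited table belong to it. They comprise 20 cytosolic enzymes, among them Gars and Kars, whose products serve both compartments, and 16 mitochondrial enzymes. Of the 36 symbols, 35 matched directly and 1, Mars1, is listed under its older symbol Mars. Lars2, the mitochondrial leucyl-tRNA synthetase, was chosen by its measured share of reads and is therefore described without a test, which leaves 35 genes for testing.

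RNA was sequenced from CD4+ thymocytes of C57BL/6 mice, in 12 libraries, 7 days after tamoxifen was given at 10 μg per g. In these mice tdTomato marks cells labelled by the tamoxifen pulse and GFP was used to sort regulatory T cells (Treg). The 4 groups of 3 libraries were CD73+ new Treg (tdTomato+ GFP+ CD73+), CD73- new Treg (tdTomato+ GFP+ CD73-), bulk tdTomato- Treg (tdTomato- GFP+, not divided by CD73) and new conventional T cells, Tconv (tdTomato+ GFP- CD73-). CD73 is an ectoenzyme encoded by Nt5e, and it divides the tdTomato+ Treg in this sort. All groups share the tamoxifen treatment, and the transgenes that carry tdTomato, GFP and the recombinase are not named in the labels. Replicates carry the letters A, B and D. Whether they stem from different animals is not stated, so the p-values speak of the variation among the sequenced libraries only, which may be technical.

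Levels are log2 CPM as deposited, where CPM is counts per 1000000 counts of a library's size after the authors' scaling. The CPM of a library therefore need not sum to 1000000. The CD73+ and CD73- new Treg were normalised in 1 table and the tdTomato- Treg and Tconv in another, so tests were made only within a table and levels set side by side across tables are approximate. Libraries had an effective depth, the library size after the authors' scaling, of 11000000 to 21400000 counts. The groups were checked against their markers: 5 Treg genes (Foxp3, Il2ra, Ctla4, Ikzf2 and Tnfrsf18) summed to 3490 to 3800 CPM in CD73+ new Treg, 3340 to 3430 in CD73- new Treg, 3780 to 3920 in tdTomato- Treg and 205 to 217 in Tconv. Markers of CD8 and double-positive thymocytes summed to 18.4 to 23.6 CPM in CD73+ new Treg and to 25.2 to 67.5 CPM in CD73- new Treg, highest in replicate B; of the 4 marker genes tested none passed (limma), and all were on the negative side. Beside the comparison of tdTomato- Treg with Tconv, B cell markers summed to 6.02 to 7.6 against 2.39 to 3.36 CPM, myeloid and dendritic markers to 29.3 to 40.4 against 22.3 to 23.6 CPM, and thymic epithelial markers to 5.63 to 7.69 against 2.45 to 2.81 CPM. The part of other cells in the differences below was not tested. In sorted bulk cells, fewer cells that use a gene and less of its RNA per cell cannot be told apart.

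Reads assigned to Lars2 filled 16.1% to 32.4% of every library. Lars2 (ENSMUSG00000035202.8) lies at chr9:123366927-123462666 on the + strand of GRCm38 and has 11.09 kb of exon. It held 30.1%, 28.5% and 30.2% of the summed CPM in CD73+ new Treg replicates A, B and D, against 28.8%, 22.9% and 25.7% in CD73- new Treg. It held 31.4%, 32.4% and 30.8% in tdTomato- Treg, against 26.7%, 16.1% and 27.4% in Tconv. The 2 newly generated Treg groups overlapped, the 3 tdTomato- Treg libraries lay above all 3 Tconv libraries, and Tconv replicate B was lowest of the 12. The gene with the next most reads held at most 0.792% of a library.

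Lars2 exceeded its whole family in reads. Its CPM was 237 ± 11.6 times that of the other 35 synthetase genes together in CD73+ new Treg and 207 ± 32.1 times in CD73- new Treg (SD, n = 3 each). The ratio was 253 ± 8.33 in tdTomato- Treg and 168 ± 56.8 in Tconv. Between replicates it varied more than every other synthetase gene in Tconv alone, where its log2 CPM had an SD of 0.54, the highest SD of the others was 0.23 (Vars), and replicate B alone was low. In CD73- new Treg its SD was 0.23, beside a highest of 0.24 (Aars2). In CD73+ new Treg and tdTomato- Treg its SD was 0.08 and 0.04, beside medians of the other genes of 0.09 and 0.07. No other annotated gene shares exon bases with Lars2. Its longest protein-coding transcript, of 3894 bases, was searched against annotated transcripts. None of another gene was at least 95% identical to it over 100 bases or more. The rest of its 11.09 kb of exon, and sequence outside annotated transcripts, were not searched. Whether these reads come from Lars2 messenger RNA was not tested, so they may not be a level of expression.

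**Figure D1:**
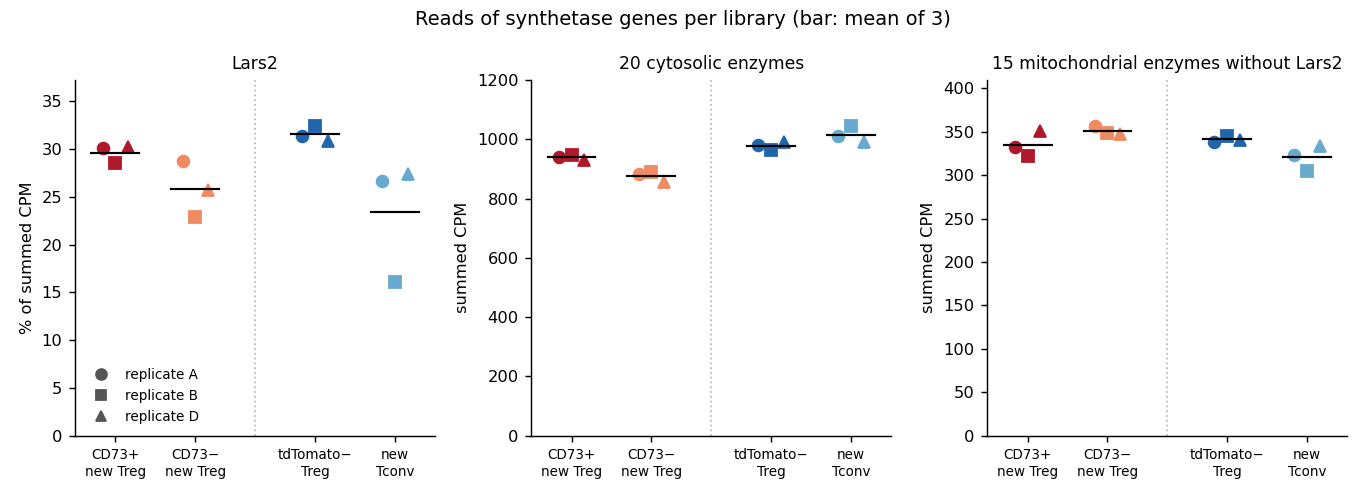
Each point is a library, with its replicate letter as the symbol and the mean of 3 as a bar; the panels give Lars2 as a percent of the summed CPM, the summed CPM of the 20 cytosolic enzymes and that of the 15 mitochondrial enzymes without Lars2. Lars2 ranges from 16.1% in a Tconv library to 32.4% in a tdTomato- Treg library, while the class sums of each group stay close to their means.

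Without Lars2, the class sums of the family differed by small ratios between groups. The 20 cytosolic genes summed to 940 ± 8.56 CPM in CD73+ new Treg and 876 ± 17.3 CPM in CD73- new Treg (SD, n = 3 each), a ratio of 1.07. They summed to 979 ± 13.2 CPM in tdTomato- Treg and 1020 ± 26.3 CPM in Tconv, a ratio of 0.963. The other 15 mitochondrial genes summed to 335 ± 14.6 against 350 ± 5.06 CPM in CD73+ and CD73- new Treg, and to 341 ± 3.44 against 320 ± 14.2 CPM in tdTomato- Treg and Tconv. Rescaled to CPM over the reads not assigned to Lars2, the cytosolic ratios were 1.09 and 0.96 and the mitochondrial ratios 0.968 and 1.06. This rescaling could change little, because the summed CPM outside Lars2 was already similar between libraries as deposited. Tconv replicate B summed to 864160 CPM with 139509 of Lars2, and tdTomato- Treg replicate B to 1060304 CPM with 343512 of Lars2. The class totals stayed near a ratio of 1 in either comparison. Yet the cytosolic sums of the libraries did not overlap in either comparison. They were 931.2 to 948.2 CPM in CD73+ against 857 to 890.2 CPM in CD73- new Treg. In tdTomato- Treg they were 964.8 to 991.1 CPM, against 992.1 to 1044 CPM in Tconv. The mitochondrial sums overlapped between the new Treg groups. In tdTomato- Treg they were 338.6 to 345.1 CPM, above 305 to 332.9 CPM in Tconv. These sums were not tested.

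Per exon length, the cytosolic enzymes were about 3 times as abundant as the mitochondrial ones in every group. The median CPM per kb of exon of the cytosolic genes was 10.2 in CD73+ new Treg, 8.8 in CD73- new Treg, 9.42 in tdTomato- Treg and 10.8 in Tconv. For the mitochondrial genes without Lars2 the medians were 3.06, 3.21, 3.03 and 3.37 CPM per kb in the same order. Lars2 had 27300, 22900, 30100 and 20300 CPM per kb. The highest of the other genes was Kars, for lysine, in CD73+ and CD73- new Treg (13.2 and 12.8 CPM per kb), Vars, for valine, in tdTomato- Treg (17.2) and Dars, for aspartate, in Tconv (15.1). The lowest was Sars2, the mitochondrial seryl enzyme, in the 3 Treg groups (1.57, 1.23 and 1.42), and Wars2, the mitochondrial tryptophanyl enzyme, in Tconv (1.89). Most neighbours in this order could not be separated: 26, 27, 23 and 26 of the 34 adjacent pairs, in the group order above, lay within 1 SD of each other. The compartments overlapped. Tars2, the mitochondrial threonyl enzyme, had 10.3, 11.3 and 10.9 CPM per kb in the 3 Treg groups, above the cytosolic medians, and 5.95 in Tconv. Iars2, for isoleucine, had 6.68, 6.71, 6.53 and 6.52 CPM per kb in the group order above, more than the cytosolic Aars, Yars and Cars in each group, and Cars, for cysteine, had 3.34, 3.33, 3.03 and 3.02, near the mitochondrial medians. The exon length joins the exons of all annotated isoforms, so a gene with long rare exons, such as Eprs with 18.1 kb, reads lower than its main transcript would.

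**Figure D2:**
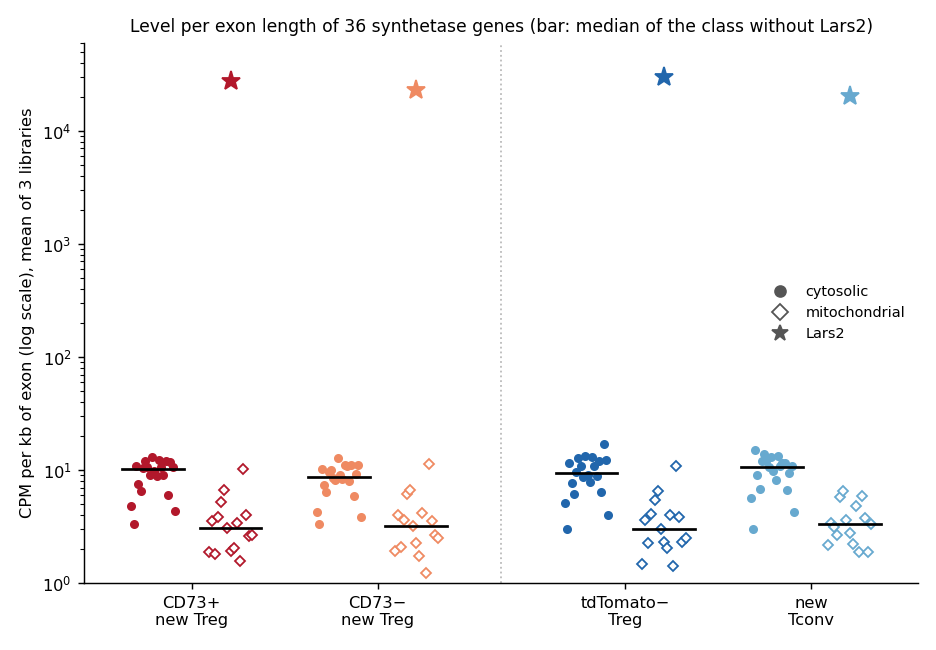
Each point is a gene's mean CPM per kb of exon over 3 libraries on a log axis, filled for cytosolic and open for mitochondrial enzymes, with the class median without Lars2 as a bar and Lars2 as a star. The cytosolic medians lie between 8.8 and 10.8 and the mitochondrial ones between 3.03 and 3.37, while Lars2 lies between 20300 and 30100.

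CD73+ new Treg differed little from CD73- new Treg in these genes. Vars, the cytosolic valyl-tRNA synthetase, rose, and in the fit without a replicate block no other synthetase gene passed the threshold of an adjusted p under 0.05 (limma, Benjamini-Hochberg over 11170 genes). With the replicate letter as a block, 2 or 3 genes passed, as given below. Of these 35 genes 1 was called, on the higher side, where 2.44% of all genes tested were called, 1.79% higher and 0.654% lower. The 273 genes called were 200 higher and 73 lower, and 165 higher and 99 lower when each library was centred on its median. The cytosolic genes were mostly on the positive side: 17 of 20 had a positive log2 fold change and 2 a negative one, with a median of 0.11 beside 0.01 over all genes. Of the 15 mitochondrial genes 5 were positive and 10 negative, with a median of -0.02. The libraries of the groups did not overlap for 7 genes that were higher and 1 that was lower among the 35, where 18.2% of all genes did not overlap, 10.0% higher and 8.18% lower.

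Vars (ENSMUSG00000007029.16, chr17:35000987-35016322, + strand) had a log2 CPM of 6.06, 6.06 and 6.07 in CD73+ new Treg replicates A, B and D, against 5.69, 5.76 and 5.68 in CD73- new Treg. The groups did not overlap, and the gap between them was larger than the spread inside either. The log2 fold change was 0.35 (SE 0.09, adjusted p = 0.039 by limma), and the authors' deposited table gives an adjusted p of 0.023. The call was narrow: with the log2 fold change staying between 0.34 and 0.35, the adjusted p was 0.113, 0.128 and 0.0792 without CD73+ new Treg replicate A, B or D, and 0.0966 and 0.121 without CD73- new Treg replicate A or D. The call held without CD73- new Treg replicate B, the library with the most reads of CD8 and double-positive markers (adjusted p = 0.0428). No other annotated gene shares exon bases with Vars, and the same search with its longest protein-coding transcript found no similar transcript.

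The next genes by p were the cytosolic Gars, Hars and Aars, for glycine, histidine and alanine, and the mitochondrial Hars2 and Rars2, for histidine and arginine. Gars had a log2 CPM of 5.26, 5.31 and 5.14 in CD73+ new Treg, against 5.07, 4.97 and 4.90 in CD73- new Treg. Hars had 4.69, 4.77 and 4.69 in CD73+ new Treg, against 4.37, 4.46 and 4.34 in CD73- new Treg. Neither gene overlapped between the groups, yet their log2 fold changes of 0.26 (SE 0.07, adjusted p = 0.087) and 0.33 (SE 0.10, adjusted p = 0.1) missed the threshold of the limma test. With the replicate letter as a block over all 12 libraries both passed (adjusted p = 0.038 for Gars and 0.0335 for Hars, limma), as did Vars (0.0129), so that 3 of 35 genes were called, where 5.64% of all genes were called in that fit. With the block in the 2 groups alone, 2 of 35 were called, Vars and Hars (adjusted p = 0.0453 for Hars, 0.0617 for Gars), where 7.51% of all genes were called. The synthetases' count thus grew along with that of all genes.

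Aars had 5.45, 5.45 and 5.53 in CD73+ new Treg, against 5.34, 5.30 and 5.25 in CD73- new Treg, without overlap (log2 fold change 0.18, SE 0.07, adjusted p = 0.22). Hars2 had 4.31, 4.62 and 4.54 against 4.66, 4.62 and 4.91, which meet at 4.62 (-0.24, SE 0.10, adjusted p = 0.24). Rars2 had 3.28, 3.42 and 3.05 against 3.53, 3.59 and 3.51, without overlap (-0.29, SE 0.13, adjusted p = 0.27). Hars and Hars2 lie head to head and share 195 exon bases on opposite strands, and whether counting used the strand is not stated. The other 29 genes had log2 fold changes between -0.24 and 0.34, and the 8 members of the multi-synthetase complex between -0.04 and 0.18.

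**Figure D3:**
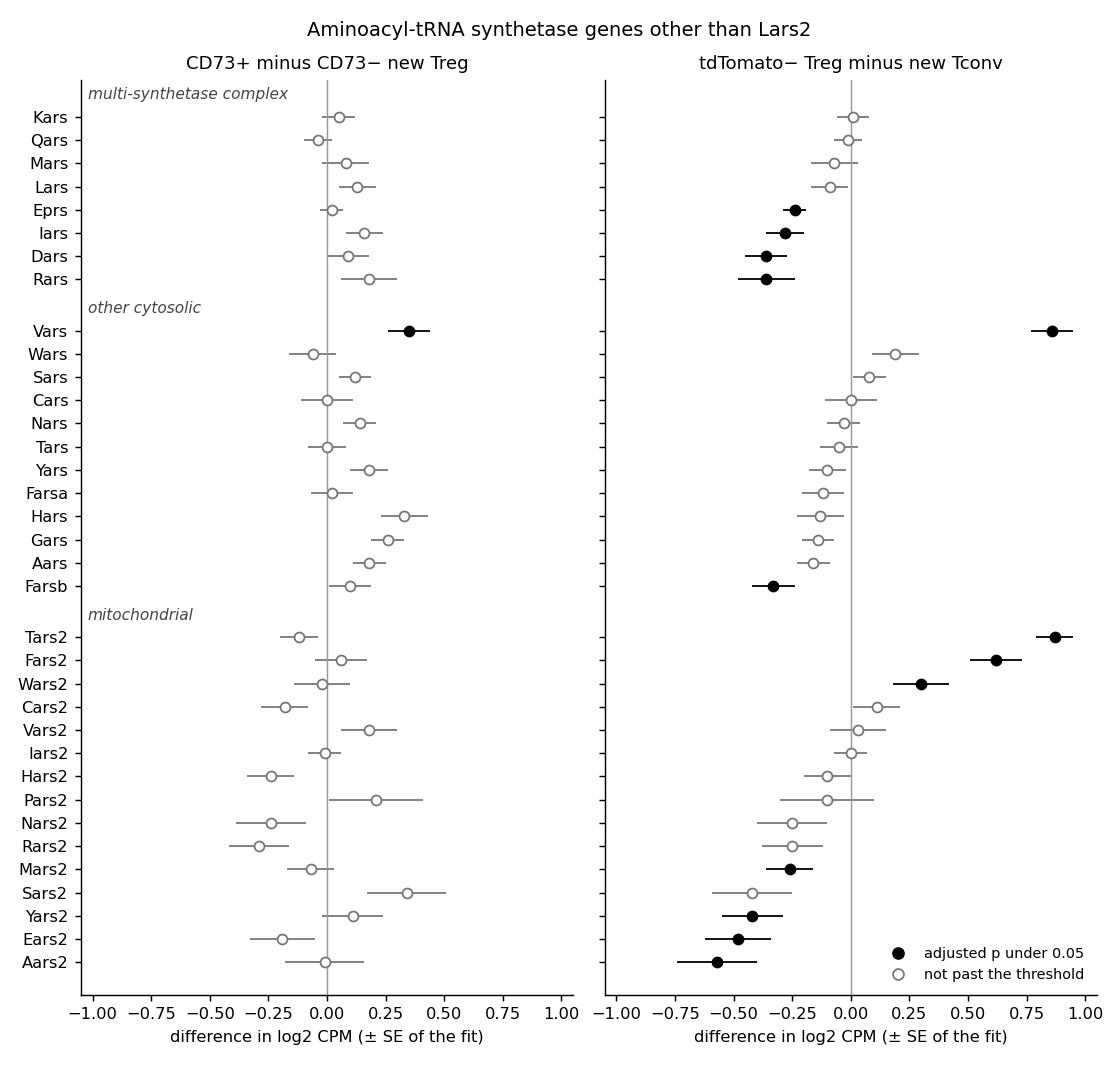
The difference in log2 CPM is plotted for the 35 synthetase genes other than Lars2, with the SE of the fit as bars and black points for an adjusted p under 0.05 without a replicate block; CD73+ minus CD73- new Treg is on the left and tdTomato- Treg minus Tconv on the right. Vars is the black point on the left at 0.35, and the right panel has 13 black points between -0.57 and 0.87.

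tdTomato- Treg and Tconv differed in more of the synthetase genes. These groups differ at once in GFP, in the tdTomato label and in the sort by CD73, which cannot be told apart here. Vars and the mitochondrial threonyl enzyme Tars2 rose 1.82-fold and 1.83-fold, the mitochondrial phenylalanyl enzyme Fars2 rose 1.54-fold and Wars2 1.23-fold. Against them 9 genes fell, to between 0.672-fold for the mitochondrial alanyl enzyme Aars2 and 0.845-fold for the glutamyl-prolyl enzyme Eprs. In all, 13 of 35 genes passed (limma, adjusted p under 0.05 over 11198 genes), 4 higher and 9 lower, where 52.1% of all genes tested passed, 26.4% higher and 25.7% lower. The share among the synthetases was below that background. The libraries did not overlap for 4 genes that were higher and 12 that were lower, where 60.9% of all genes did not overlap, 30.5% higher and 30.5% lower. The median absolute log2 fold change of the synthetases was 0.16, beside 0.29 over all genes, and their median log2 fold change was -0.10, beside -0.01.

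Among the cytosolic enzymes 1 of 20 rose and 5 fell, where 26.4% of all genes tested rose and 25.7% fell. Vars had a log2 CPM of 6.61, 6.58 and 6.58 in tdTomato- Treg, against 5.83, 5.46 and 5.89 in Tconv. The groups lay far apart, and Tconv replicate B was the lowest. The log2 fold change was 0.86 (SE 0.09, adjusted p = 2.5e-07 by limma), and 0.73 without Tconv replicate B. The groups of this comparison are not those of the newly generated Treg, and Vars is the synthetase gene that passed in both comparisons. The 2 calls are not independent, because 1 fit over all 12 libraries gave the spread for both and the groups share replicate letters. The Vars call between the new Treg held in 10 of 17 alternative settings. Valyl-tRNA synthetase is known to associate with the elongation factor 1 complex, which brings charged transfer RNA to the ribosome.

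Of the 8 enzymes of the multi-synthetase complex 4 fell and 0 rose, beside 1 that rose and 1 that fell among the other 12 cytosolic genes. Over all genes tested 52.1% passed, 26.4% higher and 25.7% lower. Whether the complex differs from the other enzymes was not tested. Eprs, which charges glutamate and proline, had a log2 CPM of 7.16, 7.04 and 7.16 in tdTomato- Treg, against 7.38, 7.41 and 7.30 in Tconv. Dars had 5.61, 5.66 and 5.74 against 5.98, 6.23 and 5.89. Iars, for isoleucine, had 5.55, 5.48 and 5.57 against 5.79, 5.91 and 5.74. In each of these 3 genes every tdTomato- Treg library lay below every Tconv library, and Tconv replicate B was the highest. Their log2 fold changes were -0.24 (SE 0.05, adjusted p = 0.00096), -0.36 (SE 0.09, adjusted p = 0.0026) and -0.28 (SE 0.08, adjusted p = 0.0076) by limma.

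Rars, for arginine, had 4.84, 4.89 and 4.80 in tdTomato- Treg, against 4.99, 5.43 and 5.20 in Tconv, without overlap (-0.36, SE 0.12, adjusted p = 0.019). Its call was lost without Tconv replicate B (-0.25, adjusted p = 0.108) and without tdTomato- Treg replicate D (-0.34, adjusted p = 0.0598). The other 4 genes of the complex, Lars, Mars, Qars and Kars, had log2 fold changes of -0.09, -0.07, -0.01 and 0.01, none past the threshold. Of the Iars transcript 49.9% is also found, at 95% identity or more, in the processed pseudogene Gm4849, so its count is uncertain by reads that could be assigned to either.

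Outside the complex, Farsb, the beta subunit of the cytosolic phenylalanyl enzyme, had 4.68, 4.54 and 4.77 in tdTomato- Treg, against 4.99, 5.08 and 4.90 in Tconv. These libraries did not overlap, and the log2 fold change was -0.33 (SE 0.09, adjusted p = 0.007). Farsb shares 248 exon bases with Sgpp2 on the opposite strand, which has values in the table of the new Treg alone, at a log2 CPM of -4.46 to -1.11. Its partner Farsa, the alpha subunit, had a log2 fold change of -0.12 (SE 0.09, adjusted p = 0.26). The cytosolic genes next in order on the higher side were Wars (0.19, adjusted p = 0.13), Sars (0.08), Kars (0.01) and Cars (0.00), and none of these passed. Gars, Hars and Aars, which had positive values in CD73+ against CD73- new Treg, had log2 fold changes of -0.14, -0.13 and -0.16 here, none past the threshold. Aars shares 1326 exon bases with Exosc6 on the same strand, so reads there could be assigned to either gene.

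**Figure D4:**
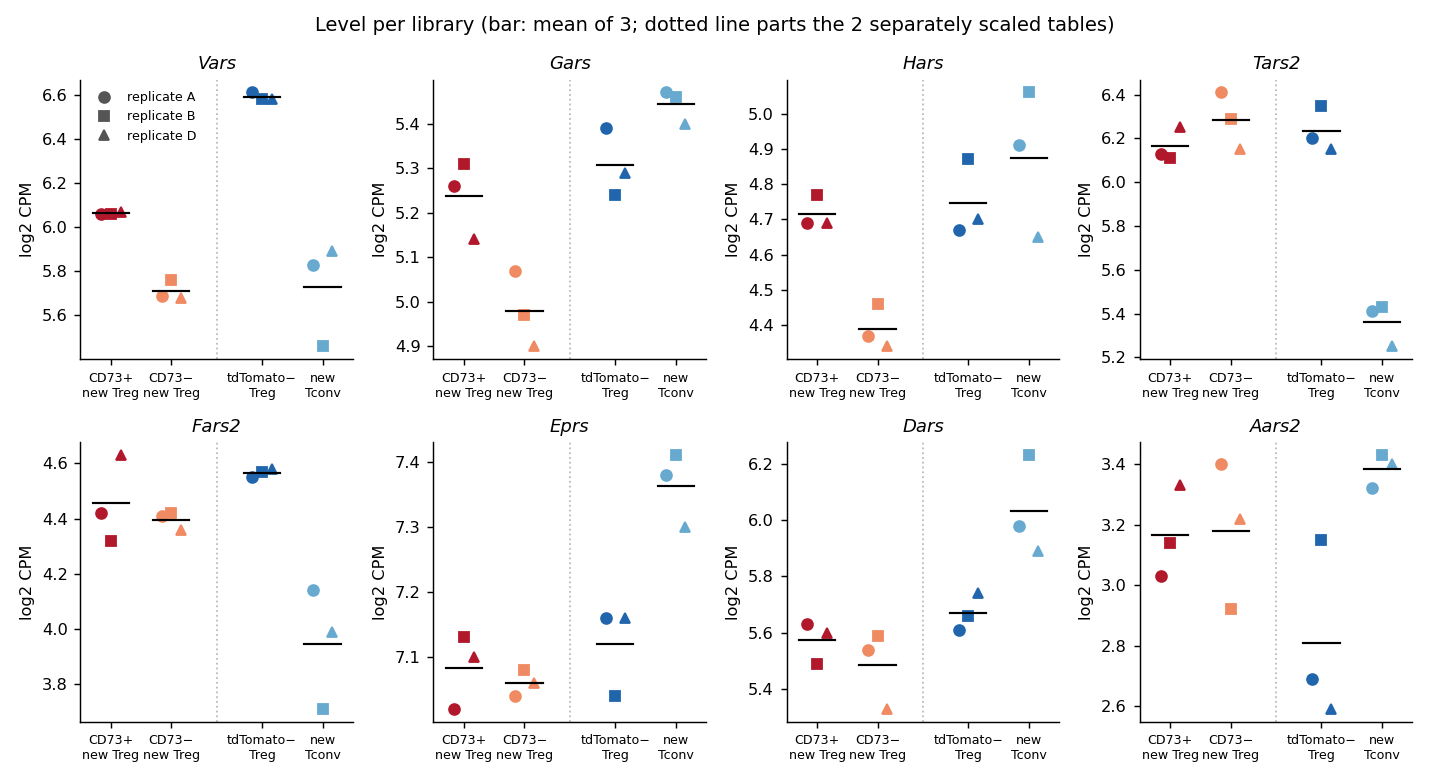
Log2 CPM of 8 synthetase genes is plotted for each library, with the replicate letter as the symbol, the mean of 3 as a bar and a dotted line between the separately scaled tables. Vars lies above in CD73+ new Treg and in tdTomato- Treg, Tars2 and Fars2 lie low in Tconv alone, and Eprs, Dars and Aars2 are lower in tdTomato- Treg than in Tconv.

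Among the 15 mitochondrial enzymes 3 rose and 4 fell, where 26.4% of all genes tested rose and 25.7% fell. Tars2 (ENSMUSG00000028107.14, chr3:95739976-95760206, - strand) had a log2 CPM of 6.20, 6.35 and 6.15 in tdTomato- Treg, against 5.41, 5.43 and 5.25 in Tconv. No library of either group came near the other group, and the log2 fold change was 0.87 (SE 0.08, adjusted p = 8.4e-08 by limma). Between CD73+ and CD73- new Treg, Tars2 had 6.13, 6.11 and 6.25 against 6.41, 6.29 and 6.15, which overlap (-0.12, SE 0.08, adjusted p = 0.46). Tars2 shares no exon bases with another gene.

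Fars2 had 4.55, 4.57 and 4.58 in tdTomato- Treg, against 4.14, 3.71 and 3.99 in Tconv. The Treg libraries were nearly equal and all above the Tconv libraries, of which replicate B was lowest (log2 fold change 0.62, SE 0.11, adjusted p = 0.00018). Fars2 shares 501 exon bases with Nrn1 and 115 with Lyrm4, both on the opposite strand. Nrn1 had 5.15, 5.24 and 5.30 in tdTomato- Treg, against 1.83, 1.76 and 1.55 in Tconv (a difference of 3.52, SE 0.14, adjusted p = 2.8e-12), and Lyrm4 had a log2 fold change of 0.64 (SE 0.13, adjusted p = 0.00079). These neighbours moved the same way as Fars2, and their part in its count was not tested. Wars2 had 3.73, 3.76 and 3.86 in tdTomato- Treg, against 3.29, 3.46 and 3.70 in Tconv (0.30, SE 0.12, adjusted p = 0.047). It passed in 5 of 17 alternative settings, and lost its call when replicate A, B or D of tdTomato- Treg or replicate A or B of Tconv was left out (adjusted p = 0.0711 to 0.21; lowest log2 fold change 0.20 without Tconv replicate A).

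The 4 mitochondrial genes that fell were Aars2, Ears2, Yars2 and Mars2, for alanine, glutamate, tyrosine and methionine. Aars2 had 2.69, 3.15 and 2.59 in tdTomato- Treg, against 3.32, 3.43 and 3.40 in Tconv, with the Treg replicate B close to the Tconv libraries (log2 fold change -0.57, SE 0.17, adjusted p = 0.0085). Ears2 had 3.75, 3.33 and 3.53 in tdTomato- Treg, against 4.07, 3.94 and 4.05 in Tconv (-0.48, SE 0.14, adjusted p = 0.0092). Both were without overlap. Ears2 missed the threshold without tdTomato- Treg replicate B (-0.38, adjusted p = 0.0571), and it shares 89 exon bases with Ubfd1 on the opposite strand, whose log2 fold change was -0.36.

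Yars2 had 3.01, 2.94 and 2.99 in tdTomato- Treg, against 3.45, 3.29 and 3.47 in Tconv, without overlap (-0.42, SE 0.13, adjusted p = 0.014, and 0.0525 without Tconv replicate D). Mars2 had 5.11, 4.94 and 5.23 in tdTomato- Treg, against 5.41, 5.15 and 5.49 in Tconv (-0.26, SE 0.10, adjusted p = 0.041). The Mars2 groups overlapped, and its call was lost without tdTomato- Treg replicate A (adjusted p = 0.0771) or B (-0.18, 0.19) and without Tconv replicate A (0.118) or D (0.176). Sars2 lay just outside the threshold (-0.42, SE 0.17, adjusted p = 0.055) with no overlap between groups. Cars2 and Vars2, for cysteine and valine, had log2 fold changes of 0.11 and 0.03. Iars2 had 0.00, and it shares 2034 exon bases (22.9%) with Rab3gap2 on the opposite strand, which rose (0.35, SE 0.08, adjusted p = 0.0009). For valine and threonine the enzyme of 1 compartment rose in this comparison and that of the other did not pass. The values were 0.86 for Vars and 0.03 for Vars2, and -0.05 for Tars and 0.87 for Tars2. For phenylalanine the cytosolic Farsb fell (-0.33) and the mitochondrial Fars2 rose (0.62), while Farsa did not pass (-0.12).

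Of the 13 genes, 7 passed in all 17 alternative settings. These were Vars, Tars2 and Fars2 on the higher side and Eprs, Dars, Iars and Farsb on the lower side. Without the 4 libraries of letter D, those 7 were also the ones that passed. The authors' deposited table for this comparison has 11 synthetase genes with an adjusted p under 0.05, 3 higher and 8 lower.

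The promoters of some cytosolic members carry the composite element TGATGNAA, to which ATF4 binds with a C/EBP partner, and these windows are shown so that the members holding its letters can be seen. RefSeq promoter sequences (GRCm38.p6, 250 bases before to 50 after the transcript start) were matched for 27 of the 36 genes, 13 cytosolic and 14 mitochondrial; Vars was not among them. The element was searched on both strands as TGATGNAA and TTNCATCA. It was found in 5 of 27 promoters (18.5%), all 5 of them cytosolic, against 4.06% of 27025 promoters and 2.31% of the 10325 promoters of genes with values here. Each window below is 60 bases of the gene's own strand, 5′ to 3′, with the element in capitals.
Aars, upstream element, chr8:111033704-111033763, + strand: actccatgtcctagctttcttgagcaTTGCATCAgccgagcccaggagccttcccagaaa
Aars, downstream element, chr8:111033825-111033884, + strand: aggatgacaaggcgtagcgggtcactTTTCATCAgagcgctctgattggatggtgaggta
Gars, chr6:55037945-55038004, + strand: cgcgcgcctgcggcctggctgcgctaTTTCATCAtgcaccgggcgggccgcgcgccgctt
Iars, chr13:49682111-49682170, + strand: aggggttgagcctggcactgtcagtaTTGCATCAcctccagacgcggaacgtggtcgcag
Tars, chr15:11399640-11399699, - strand: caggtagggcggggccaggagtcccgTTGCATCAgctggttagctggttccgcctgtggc
Yars, chr4:129189880-129189939, + strand: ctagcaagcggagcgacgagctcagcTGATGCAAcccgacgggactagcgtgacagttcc

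Of these 6 elements, 5 read TTGCATCA or TTTCATCA on the gene's strand and the Yars element reads TGATGCAA. The elements begin 112 bases before the transcript start of Aars and 9 bases after it, 30 bases before that of Gars, 7 bases after that of Iars, 15 bases before that of Tars and 3 bases after that of Yars. The E-box CACGTG was in 5 of the 27 promoters (18.5%; Aars, Iars, Tars, Farsb and Ears2), against 7.24% of all promoters and 9.97% of those of genes with values. A match of letters is a description and no sign of binding. The 5 genes with the composite element had a median log2 fold change of 0.18 in CD73+ against CD73- new Treg, beside 0.11 for the 20 cytosolic genes. None of the 5 passed there without the replicate block, where 2.44% of all genes did. In tdTomato- Treg against Tconv their median was -0.14, beside -0.10 for the cytosolic genes. Iars alone passed, on the lower side, where 52.1% of all genes passed.

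Around the enzymes themselves, 87 genes of 7 related lists were tested. In CD73+ against CD73- new Treg 1 of the 87 passed, where 2.44% of all genes did: Eif5a, a translation factor that helps ribosomes through difficult peptide bonds. Eif5a had a log2 CPM of 7.83, 7.85 and 7.79 in CD73+ new Treg, against 7.65, 7.66 and 7.58 in CD73- new Treg, without overlap (log2 fold change 0.19, SE 0.05, adjusted p = 0.048 by limma). Its call was lost when any 1 of the 6 libraries was left out (adjusted p = 0.0518 to 0.173). All 7 elongation factor genes had positive log2 fold changes, with a median of 0.13 beside 0.01 over all genes. The libraries of 5 did not overlap, where 10.0% of all genes were higher without overlap. With the letter as a block over all 12 libraries 4 of the 87 genes passed, Eif5a, Eef1a1, Eef2 and Cebpb, where 5.64% of all genes did. Of 22 genes of ATF4 and its targets none passed in the unblocked limma fit, with 19 positive and a median of 0.17. Over all genes tested 5693 of 11170 were positive, with a median of 0.01.

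In tdTomato- Treg against Tconv 37 of the 87 passed, 16 higher and 21 lower. Over all genes tested 52.1% passed, 26.4% higher and 25.7% lower. Among the partners of the enzymes, Eef1e1, a scaffold of the multi-synthetase complex, fell (-0.45, SE 0.12, adjusted p = 0.0056), and the other 2 scaffold genes did not pass. Of the 7 elongation factors, Eef1d (0.34, SE 0.08, adjusted p = 0.0016), a subunit of the complex that Vars binds, and Eif5a (0.25, SE 0.05, adjusted p = 0.00035) rose. Eef1b2, another subunit of that complex, fell (-0.17, SE 0.06, adjusted p = 0.026), as did Eefsec, which carries selenocysteine to the ribosome (-0.64, SE 0.08, adjusted p = 4.2e-06). With 1 library left out, the adjusted p of Eef1b2 reached 0.144 (limma).

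Of 14 accessory genes 1 rose and 5 fell, where 26.4% of all genes tested rose and 25.7% fell. Pstk and Sepsecs act in turn to make selenocysteine on its transfer RNA, and Pstk rose (0.51, SE 0.14, adjusted p = 0.0062) while Sepsecs fell (-0.37, SE 0.12, adjusted p = 0.015). Tarsl2, a second cytosolic threonyl-tRNA synthetase, fell (-0.60, SE 0.19, adjusted p = 0.014), opposite in sign to Tars2. Trnt1, which adds the CCA end of transfer RNAs (-0.31), and Qrsl1, a subunit of the mitochondrial amidotransferase that makes glutaminyl-tRNA (-0.51), fell too. With 1 library left out, the adjusted p reached 0.0681 for Sepsecs, 0.0545 for Tarsl2 and 0.0519 for Trnt1 (limma). Of 11 mitochondrial translation factors, Mrrf, the ribosome recycling factor, fell (-0.86, SE 0.13, adjusted p = 3.6e-05) and no other passed.

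The list of ATF4 and its targets did not move in a single direction: 7 of 22 rose and 4 fell, where 26.4% of all genes rose and 25.7% fell. The median was 0.15, beside -0.01 over all genes. Bcat1, the cytosolic branched-chain aminotransferase, had 3.18, 3.22 and 3.23 in tdTomato- Treg, against 0.60, 0.14 and -0.12 in Tconv (3.00, SE 0.19, adjusted p = 1.2e-09 by limma). Cebpb (2.12), Sesn2 (1.30) and the glutamine transporter gene Slc1a5 (0.59) rose as well. Psat1 of serine synthesis (-0.78), Ddit3 (-0.63) and the amino acid transporter genes Slc38a2 (-0.33) and Slc7a1 (-0.19) fell. The Slc38a2 groups overlapped. With 1 library left out, the adjusted p reached 0.108 for Slc38a2 and 0.0684 for Slc7a1 (limma). Atf4 itself had 6.70, 6.60 and 6.81 in tdTomato- Treg, against 6.72, 6.64 and 6.91 in Tconv, which overlap (-0.05, SE 0.08, adjusted p = 0.59).

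Of 14 genes of the eIF2 kinases and of the factors they act on, 2 rose and 7 fell. Eif2ak4, the kinase GCN2 that senses uncharged transfer RNA (0.41, SE 0.12, adjusted p = 0.0074), and Eif2ak2 (0.36) rose, while Eif2ak3, the kinase PERK of the endoplasmic reticulum (-0.85, SE 0.10, adjusted p = 3.2e-06), and subunit genes Eif2s3x (-0.38), Eif2b1 (-0.53) and Eif2b5 (-0.39) fell. Among 17 genes of leucine and arginine sensing and of mTORC1 and its regulators, 5 rose and 1 fell. Rragd, a Rag GTPase, had 4.85, 5.12 and 4.90 in tdTomato- Treg, against 1.81, 2.18 and 2.03 in Tconv (2.95, SE 0.16, adjusted p = 1.1e-10). Sesn1 (0.88), Castor1 (1.08) and Castor2 (0.48), with Sesn2 from the list before, rose, and Sesn3 fell (-0.17). These lists share Sesn2, and the counts are to be read against the 52.1% of all genes that passed, 26.4% higher and 25.7% lower.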

How the data were processed

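Reads were processed with the mm10 build, STAR, RSEM and limma per the submitters' processing notes; versions, options, strand use and multi-mapping rules are not given in the sources used here. Values are the authors' deposited log2 CPM at 2 decimals, in 2 tables of 6 libraries that they scaled and filtered apart and merged by gene ID. The unit was read from the values: the lowest in each library is that of a gene with no count and an offset of 0.5 count, which also gives the effective depth. The authors' deposited adjusted p-values are quoted only where named, and the moderated statistic they deposited, a score per gene, was not used.

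The fit used limma 3.58.1 (R 4.3.3): 12 libraries, 4 group means, no block, an intensity trend, and contrasts within a table. The filter was log2 CPM 0 or more in 3 or more libraries. All 35 synthetase genes tested passed it, the lowest value of any being 1.98. Tests were two-sided and adjusted by Benjamini-Hochberg over all genes tested; the script was tested on simulated data. Within groups, no library was found to repeat another (SD of differences between replicates 0.123 to 0.205 log2 units).

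Pairing by letter was checked by correlating each library's deviations from its group mean over 9942 genes at log2 CPM 0 or more in every library. Same-letter libraries of CD73+ and CD73- new Treg correlated at 0.146, 0.266 and 0.222, all above 0.1, and values with the letter as a block are therefore given beside those of the unblocked fit, although over all 11167 genes tested in both tables the values were 0.11, 0.082 and 0.058. For tdTomato- Treg and Tconv they were 0.117, 0.114 and 0.054, taken as unpaired.

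Coordinates and exon lengths are from GENCODE M21 (GRCm38). Similar transcripts were searched with BLAST 2.17.0, using the longest protein-coding transcript of each gene against annotated transcripts only. Members, lists, tests and the naming rule were chosen with earlier results of these data known. The rule names synthetase genes past the threshold or the 6 of lowest p (CD73+ against CD73- new Treg), the 5 of lowest p per direction and compartment (tdTomato- Treg against Tconv), and up to 4 per direction and related list. Other genes given with values (such as Farsa, Gars, Tars and Atf4 against Tconv, Tars2 between the new Treg, Eef1a1, and neighbours of Fars2 and Ears2) were chosen after their values were seen.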

Additional observations from a re-analysis of the deposited data

How the results depend on the processing

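In CD73+ against CD73- new Treg, the count of 1 synthetase gene became 2 with the replicate block in the 2 groups and 3 with the block over all 12 libraries, 0 without the intensity trend, 0 without the 4 libraries of letter D, and 0 to 1 without 1 library; it stayed at 1 in the other 6 settings (no filter, a minimum of log2 CPM 1, quantile normalisation, rescaling without Lars2, centring on the median, logging again with 1 CPM added) and with the 2 groups fitted alone. The count of 1 related gene became 0 without a filter, 2 with the stricter filter, 2 when rescaled without Lars2, 0 when centred on the median, 0 with the 2 groups alone, 8 and 4 with the replicate block in the 2 groups and over all 12 libraries, 0 without the trend, 0 without letter D, and 0 to 1 without 1 library. In tdTomato- Treg against Tconv, the count of 13 synthetase genes was 7 without letter D, 10 to 12 without 1 library and 12 to 15 in the other settings, with 14 and 13 under the block in the 2 groups and over all 12 libraries; the 37 related genes ranged from 28 to 42. Log2 fold changes near 0 turned in sign there: Kars (0.01) was -0.04 when centred on the median, -0.03 without letter D and -0.01 to 0.04 without 1 library; Vars2 (0.03) was -0.01 under quantile normalisation, -0.03 when centred, and -0.08 to 0.14 without 1 library. The cause of these changes was not tested, also where a fit has fewer libraries. The lowest synthetase level, a log2 CPM of 1.98, rests on about 43 counts; counting error limits such genes, most of them mitochondrial, more than the others.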
